A study of Rattus norvegicus with 9 samples.

Results

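The FOS and JUN genes encode the subunits of activator protein-1 (AP-1), and all 7 of them were followed here in RBL-2H3, a line from a basophilic leukemia of the rat that serves as a mast cell model. The 4 FOS genes (Fos, Fosb, Fosl1 and Fosl2) and the 3 JUN genes (Jun, Junb and Jund) were found by symbol in each sample, out of 18006 genes with a value in at least 1 sample. The series held 9 RNA-seq samples in 3 groups of 3. Cells of the IgE/DNP group were sensitized for 12 h with 50 ng/ml of IgE against dinitrophenyl (DNP) and then stimulated for 4 h with 100 ng/ml of the antigen DNP-HSA. PF cells had the same sensitization and antigen, with 1 h of PF in between. Neither the labels nor the methods of the study say what PF is. The Ctrl cells carry the treatment label untreated, while the treatment protocol entered for every sample describes sensitization and 4 h of stimulation, so whether Ctrl cells had IgE is not known. The stimulation time of the 3 PF samples is entered as 4, 5 and 6 h in one field and as 4 h in another. The labels do not say whether the samples of a group came from separate cultures, and a legend of the study that speaks of independent experiments covers several assays, so the p-values below measure the spread between these samples, which may be technical.

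AP-1 is a dimer of leucine zipper proteins that binds DNA at TGANTCA sites and, with some partners, at the cyclic AMP response element TGACGTCA. JUN proteins pair with one another or with FOS proteins, whereas FOS proteins need a partner other than a FOS protein, such as a JUN protein. The make-up of the subunit pool thus bears on which dimers can form. Fos and Fosb are immediate early genes, switched on within minutes of a signal through MAP kinases and the serum response and CREB factors. In mast cells, antigen that crosslinks IgE on its high-affinity receptor sends such a signal, and AP-1 sites are known in the regulatory regions of several cytokine genes.

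RefSeq promoter windows of the assembly GRCr8 (250 bases before to 50 bases after the annotated start) were at hand for 5 of the 7 genes, Fosb, Fosl1, Fosl2, Junb and Jund. Those of Fosb, Junb and Jund are printed, the 3 genes with a window among those that were higher in IgE/DNP than in Ctrl. Each runs 5′ to 3′ on the strand of the gene, and the capitals mark every match, on either strand, to the TATA box TATAAA, to TGACGTCA or to its core TGACG, which TGACGTCA holds on both strands.
Fosb, chr1:88089135-88089434, minus strand: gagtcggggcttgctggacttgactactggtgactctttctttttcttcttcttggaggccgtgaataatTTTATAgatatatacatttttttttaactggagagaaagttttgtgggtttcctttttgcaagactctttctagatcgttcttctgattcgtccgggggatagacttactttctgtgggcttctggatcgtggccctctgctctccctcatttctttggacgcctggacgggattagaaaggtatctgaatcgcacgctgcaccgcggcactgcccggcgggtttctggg
Junb, chr19:40080876-40081175, plus strand: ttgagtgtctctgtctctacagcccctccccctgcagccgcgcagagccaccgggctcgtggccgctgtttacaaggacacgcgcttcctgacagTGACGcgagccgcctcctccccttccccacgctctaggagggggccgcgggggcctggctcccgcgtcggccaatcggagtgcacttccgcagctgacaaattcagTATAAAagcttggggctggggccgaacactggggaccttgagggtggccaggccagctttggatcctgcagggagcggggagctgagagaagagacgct
Jund, chr16:18769722-18770021, minus strand: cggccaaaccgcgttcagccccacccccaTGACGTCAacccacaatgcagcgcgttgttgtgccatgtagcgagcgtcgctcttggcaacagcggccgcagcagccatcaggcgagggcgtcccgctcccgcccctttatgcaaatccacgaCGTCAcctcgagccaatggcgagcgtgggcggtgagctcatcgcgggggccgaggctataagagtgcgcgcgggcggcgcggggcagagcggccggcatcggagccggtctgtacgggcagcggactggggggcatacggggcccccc
The Jund window held TGACGTCA with its first base 221 bases upstream of the start, and 1 more TGACG core, on the opposite strand, 98 bases upstream. In Junb, 1 TGACG core lay 155 bases and a TATAAA 49 bases upstream. Fosb held only a TATAAA on the opposite strand, 180 bases upstream of the start used by the table, and Fosl1 held 2 TGACG cores, 148 and 84 bases upstream. No match to TGANTCA or to the CArG box, the site of serum response factor, was found in any of the 5 windows. Of 33469 RefSeq promoter windows of the same length, 1.83% held TGACGTCA, 21.2% TGACG, 14.2% TATAAA, 7.33% TGANTCA and 1.64% a CArG box. These matches describe the letters and are not evidence of binding.

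Levels are given as FPKM, fragments scaled to transcript length and to the sample's mapped fragments, which lets genes be compared within a sample. A comparison between samples also depends on the scaling, so 2 other scalings were run. Depth in reads is unknown, because FPKM do not keep it. The deposited values summed to 573023 to 591539 FPKM in the Ctrl and IgE/DNP samples and to 610206 to 630069 in PF, where fewer genes reached 1 FPKM (10116 to 10130, against 10295 to 10347). The labels name the tissue as peripheral blood, and most mast cell and basophil markers were well expressed in all groups, among them the IgE receptor subunit Fcer1a (442, 424 and 482 FPKM in Ctrl, IgE/DNP and PF) and the growth factor receptor Kit (283, 238 and 228 FPKM). Of 15 such markers 13 had a value (not Tpsab1 and Tpsb2), with summed levels of 5636 to 5797 FPKM in Ctrl, 5536 to 5635 in IgE/DNP and 5703 to 5923 in PF. The lowest of them was Mitf in Ctrl, at 16.8 FPKM, and the basophil protease Mcpt8 in IgE/DNP and PF. Mcpt8 was at 18.6, 9.67 and 7.61 FPKM in the 3 groups. On the log2 scale against Ctrl it fell by 0.87 in IgE/DNP (SE 0.08, limma adjusted p = 0.000268) and by 1.23 in PF (SE 0.21, adjusted p = 0.00115). The protease Mcpt2 fell by 0.64 in IgE/DNP (SE 0.04, limma adjusted p = 1.88e-05). Of 15 markers of other cell types, 13 had a value and 11 of those had means below 1 FPKM in each group. The exceptions were Pecam1, an adhesion molecule of endothelium and leukocytes (60.5, 57.4 and 45.6 FPKM), and Cd3e, a CD3 subunit of the T cell receptor complex (7.41, 8.46 and 8.97 FPKM). The defining T cell, epithelial and fibroblast genes Cd3d, Epcam and Col1a1 had means of at most 0.06 FPKM. Of the 13 mast cell markers, 2 were higher and 5 lower in IgE/DNP than in Ctrl (38.5% lower, against 14.4% of all genes). In PF against IgE/DNP, 3 were higher and 3 lower as deposited, 5 and 2 after median-ratio scaling, and 1 and 5 after scaling to the mean of the sums, and in PF against Ctrl 4 were higher and 5 lower. Pecam1 was lower in PF than in IgE/DNP by a log2 fold change of -0.33 (SE 0.05, limma adjusted p = 0.000801). The part of these differences, and of the higher sums of PF, in the subunit values was not tested.

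The mRNA of the acute FOS genes Fos and Fosb and, by smaller factors, of the 3 JUN genes was higher in IgE/DNP than in Ctrl, whereas Fosl2 did not pass the test. Of the 6 members tested, 5 were higher in IgE/DNP than in Ctrl and 0 lower, where 14.7% of 10392 genes tested were higher and 14.4% lower (limma on log2(FPKM + 1), Benjamini-Hochberg adjusted p of at most 0.05). Fosl1 was below the filter of 1 FPKM in at least 3 samples. In bulk RNA, a change in the number of expressing cells and a change in RNA per cell cannot be told apart.

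Fosb (gene ID 100360880), whose protein also exists as a short splice form that gene-level values cannot separate, had the widest span. Its levels were 2.21, 2.49 and 1.57 FPKM in Ctrl, 67.2, 68.8 and 69.8 in IgE/DNP and 84.9, 90.2 and 85.0 in PF. Low in Ctrl, Fosb was the most abundant FOS gene of both antigen-treated groups, and no 2 groups overlapped. The IgE/DNP mean was 32.8-fold the Ctrl mean, with a log2 fold change of 4.50 (SE 0.10, limma adjusted p = 1.09e-07), which ranked 2 of 10392 genes. Fos (gene ID 314322), the prototype subunit, stood at 13.1, 15.1 and 10.8 FPKM in Ctrl, 36.0, 32.1 and 32.5 in IgE/DNP and 76.8, 83.2 and 72.3 in PF. Its groups did not overlap either, and unlike Fosb it was clearly present in Ctrl. The IgE/DNP mean was 2.57-fold the Ctrl mean, a log2 fold change of 1.31 (SE 0.10, limma adjusted p = 0.000131).

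Fosl2 (gene ID 25446), which encodes the longer-lived subunit FRA2, was at 36.4, 38.8 and 38.8 FPKM in Ctrl, 33.7, 39.7 and 33.9 in IgE/DNP and 24.9, 26.8 and 26.9 in PF. Ctrl and IgE/DNP samples overlapped, and the PF samples lay below both. The log2 fold change in IgE/DNP over Ctrl was -0.09 with a 95% interval of -0.24 to 0.06. Fosl1 (gene ID 25445), encoding FRA1, was scarce, at 0.17, 0.04 and 0.12 FPKM in Ctrl, 0.37, 0.29 and 0.29 in IgE/DNP and 0.04, 0.16 and 0.12 in PF. These values lay within 0.006 FPKM of 1 to 9 multiples of 0.041 FPKM. That step was chosen for the closest fit to these same values, so the match is no test of fragment counts. Each value may rest on few fragments. With no filter on low values, Fosl1 passed the test in IgE/DNP against Ctrl (log2 fold change 0.25, limma adjusted p = 0.0259) and, in the other direction, in PF against IgE/DNP (-0.25, adjusted p = 0.0105).

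The JUN genes were abundant in Ctrl and were higher in IgE/DNP by 1.28-fold to 1.33-fold. Jun (gene ID 24516), encoding c-Jun, the founding JUN protein, was at 251.4, 246.6 and 254.0 FPKM in Ctrl, 324.2, 311.9 and 326.0 in IgE/DNP and 314.0, 329.7 and 310.1 in PF. Both antigen-treated groups lay above Ctrl and overlapped each other. The log2 fold change of Jun in IgE/DNP over Ctrl was 0.35 (SE 0.03, limma adjusted p = 0.000218). Junb (gene ID 24517), which can restrain c-Jun, was at 79.0, 87.4 and 69.1 FPKM in Ctrl, 106.2, 103.3 and 104.1 in IgE/DNP and 111.3, 118.2 and 103.8 in PF. It showed the same arrangement, with every antigen-treated sample above every Ctrl sample and overlap between IgE/DNP and PF. The log2 fold change over Ctrl was 0.42 (SE 0.07, limma adjusted p = 0.00447). Jund (gene ID 24518), the JUN gene usually held to be the most constant, was at 215.5, 245.2 and 218.1 FPKM in Ctrl, 296.3, 303.7 and 301.7 in IgE/DNP and 477.3, 544.8 and 472.6 in PF. Here the groups formed 3 separate steps. The first, from Ctrl to IgE/DNP, was a log2 fold change of 0.41 (SE 0.05, limma adjusted p = 0.000847).

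**Figure D1:**
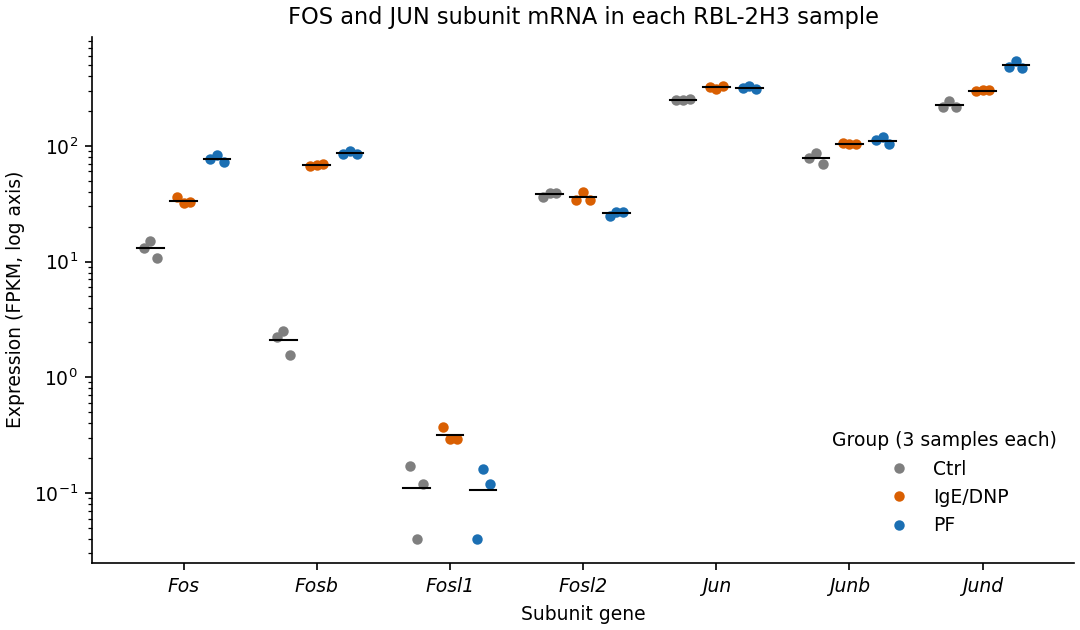
Expression of the 7 subunit genes in each sample, in FPKM on a log axis, with points for samples (grey Ctrl, orange IgE/DNP, blue PF) and black lines for the means of 3 samples. Fosb spans from 1.57 FPKM in a Ctrl sample to 90.2 in a PF sample, the JUN genes lie between 69.1 and 544.8 FPKM, and Fosl1 reaches at most 0.37 FPKM.

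Between PF and IgE/DNP the subunits divided. Fos, Fosb and Jund were higher in PF, Fosl2 was lower, and Jun and Junb did not pass the test, so 3 of 6 tested were higher and 1 lower. Among all 10329 genes tested, 18.1% were higher and 30.7% lower, so calls toward lower values were the more common ones. That split depends on the scaling, since 37.1% of all calls were toward higher values as deposited, 48.0% after median-ratio scaling and 16.8% after scaling each sample to the mean of the sums. The median log2 fold change of all genes was -0.04, 0.01 and -0.13 in the same order, and the 4 calls held with each scaling. The comparison shares its IgE/DNP samples with the comparison above.

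Jund changed most among the JUN genes, with a log2 fold change of 0.72 (SE 0.05, limma adjusted p = 9.17e-06) and a mean 1.66-fold that of IgE/DNP. That rank was 74 of 10329 genes. As deposited, the added 197.6 FPKM made up 77.9% of the family's total difference of 253.6 FPKM. This part depends on the scaling and was not computed with the other scalings. The member with the largest factor was Fos, at 2.31-fold, with a log2 fold change of 1.18 (SE 0.06, limma adjusted p = 1.39e-06) and rank 20. The factor for Fosb was 1.26-fold, a log2 fold change of 0.33 (SE 0.04, limma adjusted p = 0.000107). Fosl2 fell by 0.43 on the log2 scale (SE 0.07, limma adjusted p = 0.000737). For Jun the log2 fold change was -0.01 with a 95% interval of -0.09 to 0.07. No direction can be given for Jun, as the value was 0.04 after median-ratio scaling (limma adjusted p = 0.471) and -0.11 after scaling to the mean of the sums (adjusted p = 0.0112). Junb had 0.09 with an interval of -0.02 to 0.19, and without the third PF sample it passed the test at 0.13 (limma adjusted p = 0.0208). After scaling to the mean of the sums Junb was at -0.01, so it too is given without a direction. With the single PF sample whose stimulation is entered as 4 h in both fields, Jund was at 0.67, Fos at 1.17, Fosb at 0.30 and Fosl2 at -0.50, and the same 4 genes passed.

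In the comparison of PF with Ctrl, which uses the same samples as the other two, all 6 members tested passed, 5 of them higher (Fos, Fosb, Jun, Junb and Jund) and Fosl2 lower, on a background of 23.1% of 10361 genes higher and 34.6% lower. Calls toward higher values were 40.0% of all calls as deposited, 48.0% after median-ratio scaling and 26.7% after scaling to the mean of the sums. Fosb was at 41.5-fold its Ctrl mean, with a log2 fold change of 4.84 (SE 0.10, limma adjusted p = 6.91e-08). Fos reached 5.94-fold, with 2.49 on the log2 scale (SE 0.10, limma adjusted p = 1.10e-06). Jund had a log2 fold change of 1.13 (SE 0.07, limma adjusted p = 4.63e-06). Jun and Junb stood at 1.27-fold and 1.42-fold, close to their IgE/DNP ratios of 1.28-fold and 1.33-fold. Fosl2 was at 0.690 of its Ctrl mean and fell by 0.52 on the log2 scale (SE 0.05, limma adjusted p = 4.60e-05).

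**Figure D2:**
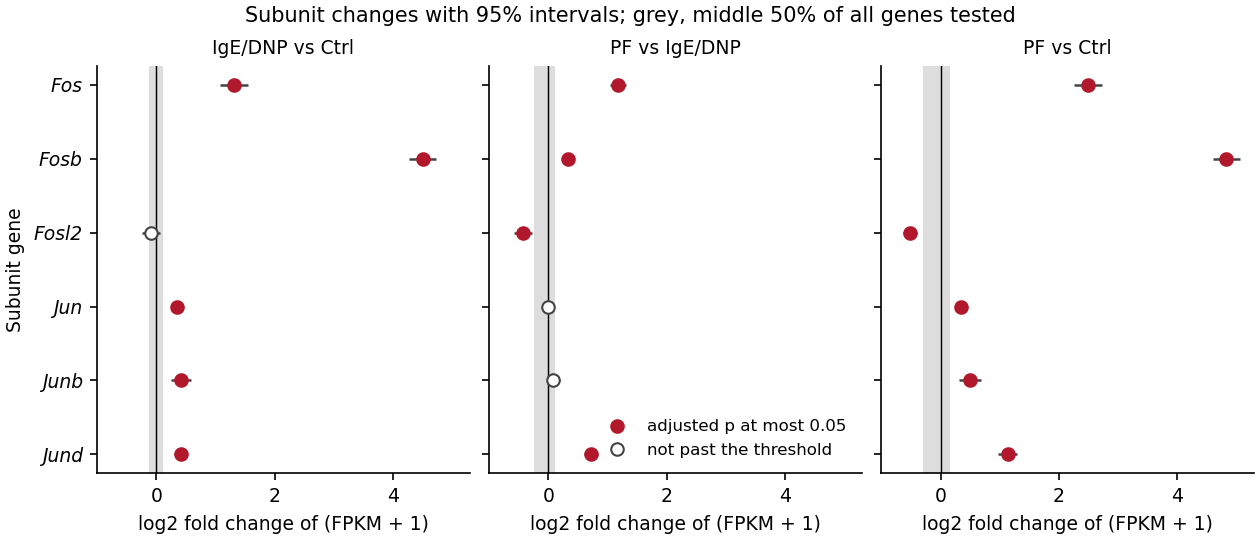
Log2 fold changes of FPKM + 1 for the 6 tested subunits in the 3 comparisons, with 95% intervals from limma as lines and the middle 50% of all tested genes as a grey band. Filled red points passed an adjusted p of 0.05 and open points did not: Fosl2 at -0.09 in IgE/DNP vs Ctrl, and Jun at -0.01 and Junb at 0.09 in PF vs IgE/DNP.

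The pool of subunit mRNA was smallest in Ctrl and largest in PF, and FOS genes made up more of it in both antigen-treated groups. The 7 genes together amounted to 608.6 ± 23.6 FPKM in Ctrl, 864.0 ± 4.35 in IgE/DNP and 1117.7 ± 65.9 in PF (SD, n = 3 each). No groups overlapped, and each pair gave a two-sided exact permutation p of 0.1, the smallest that 3 against 3 samples allow. JUN genes held most of the pool everywhere, with 10.4 JUN mRNAs for each FOS mRNA in Ctrl, 5.25 in IgE/DNP and 4.87 in PF on the FPKM scale. The FOS share was 8.68%, 8.88% and 8.67% in the Ctrl samples, 15.9%, 16.4% and 15.7% in IgE/DNP and 17.1%, 16.8% and 17.2% in PF. Groups were again separate (exact permutation p = 0.1 for each pair), but PF exceeded IgE/DNP by 1.05 percentage points. With Jund left out of the sum the difference was 6.21 points. Of the 255.4 FPKM by which IgE/DNP exceeded Ctrl as deposited, like parts were those of Jund (29.1%), Jun (27.4%) and Fosb (26.0%), with 10.2% for Junb and 8.03% for Fos.

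**Figure D3:**
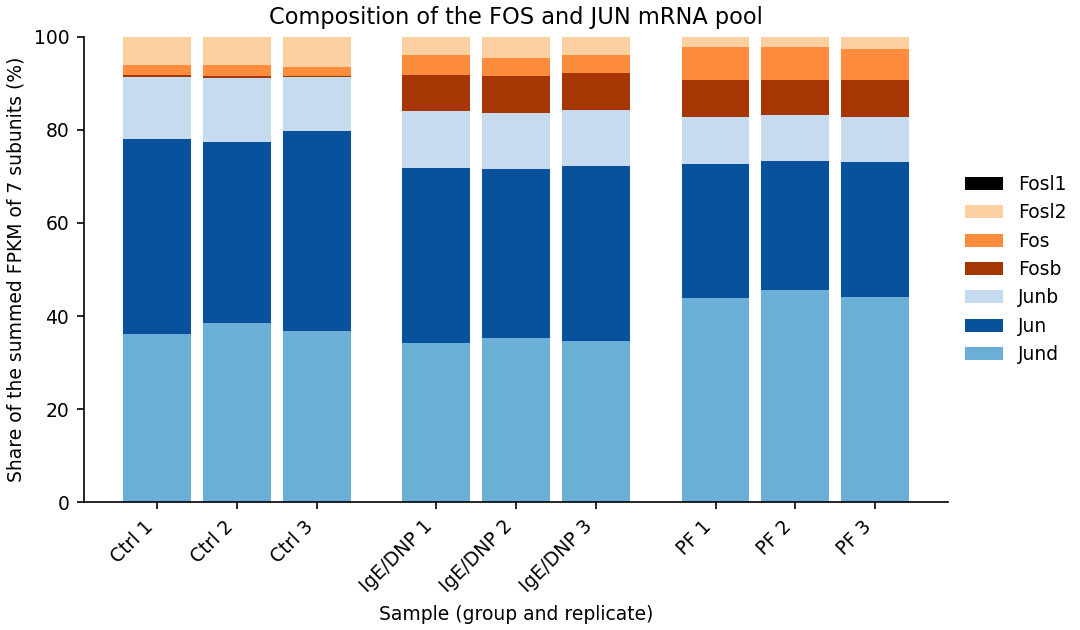
Share of each subunit gene in the summed FPKM of the 7 genes, in percent, for each of the 9 samples, with JUN genes in blue and FOS genes in orange tones (Fosl1, in black, is too small to be seen). Fosb averages 0.342% in Ctrl, 7.94% in IgE/DNP and 7.76% in PF, Jund 37.1%, 34.8% and 44.5%, and Jun 41.2%, 37.1% and 28.5%.

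Within the FOS genes, Fosl2 led in each Ctrl sample and Fosb in each antigen-treated sample. Fosl2 made up 71.5 ± 3.65% of FOS mRNA in Ctrl, 25.9 ± 2.02% in IgE/DNP and 13.8 ± 0.717% in PF. The values of Fosb were 3.91 ± 0.741%, 49.6 ± 1.31% and 45.5 ± 0.561%. The portion of Fos itself was alike in Ctrl and IgE/DNP, at 24.4 ± 2.96% and 24.3 ± 1.75% with overlapping samples, and 40.6 ± 1.25% in PF. These are all SD over 3 samples, and the separate groups gave an exact permutation p of 0.1. The number of Fosb mRNAs for each Fos mRNA was 0.159 in Ctrl, 2.05 in IgE/DNP and 1.12 in PF. For Fos over Fosl2 the ratio was 0.343, 0.946 and 2.96.

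Within the JUN genes the proportions overlapped between Ctrl and IgE/DNP and were apart from both in PF. Jun, Junb and Jund made up 45.2%, 14.1% and 40.7% of JUN mRNA in Ctrl and 44.2%, 14.4% and 41.4% in IgE/DNP, with overlapping samples for each (exact permutation p = 0.5, 0.9 and 0.5). In PF the portions were 34.3%, 12.0% and 53.7%, outside the range of both other groups for each gene (exact permutation p = 0.1). The ratio of Jund to Jun was 0.857, 0.995 and 0.859 in the Ctrl samples, 0.914, 0.974 and 0.925 in IgE/DNP and 1.52, 1.65 and 1.52 in PF. Jund thus exceeded Jun in the 3 PF samples and in no other. A ratio within a sample is not touched by a factor applied to the whole sample.

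**Figure D4:**
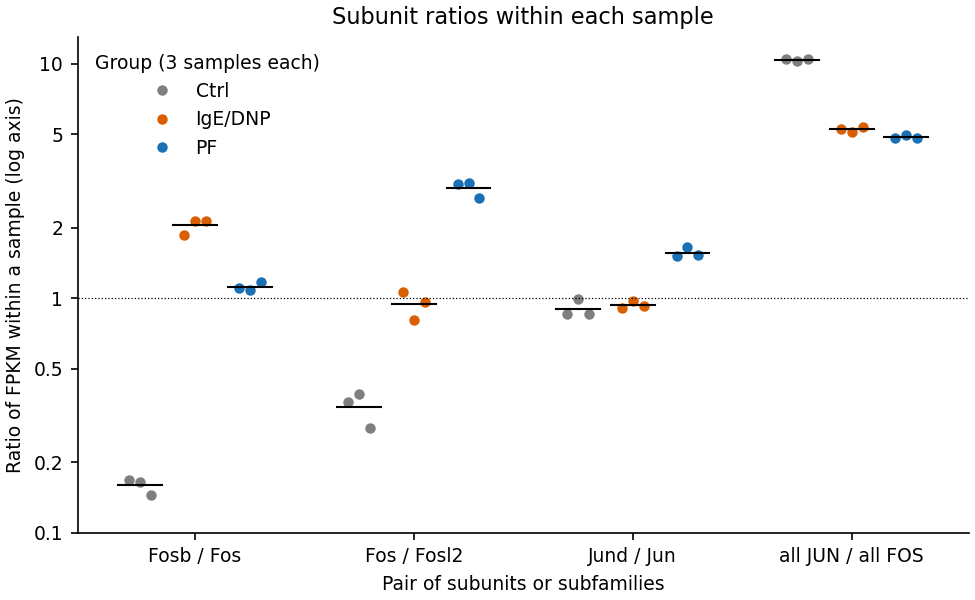
Ratios of subunit FPKM within each sample on a log axis, with points for samples, black lines for group means and a dotted line at 1. Fosb over Fos is below 1 in Ctrl (mean 0.159) and above 1 in IgE/DNP (2.05) and PF (1.12), Jund over Jun passes 1 in PF alone (1.57), and all JUN over all FOS is 10.4, 5.25 and 4.87.

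The order of abundance in Ctrl was Jun, Jund, Junb, Fosl2, Fos, Fosb and Fosl1, with no overlap between neighbours. In IgE/DNP it was Jun, Jund, Junb, Fosb, Fosl2, Fos and Fosl1, where Fosl2 and Fos overlapped and did not differ beyond their spread. In PF it was Jund, Jun, Junb, Fosb, Fos, Fosl2 and Fosl1, again without overlap. Junb kept the third place in each group.

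The gene lists that follow are described by their counts, to be read against the shares of all genes called, 14.7% higher and 14.4% lower in IgE/DNP against Ctrl, 18.1% and 30.7% in PF against IgE/DNP and 23.1% and 34.6% in PF against Ctrl. They were chosen with earlier results of these data known, so a difference from these shares is no test of a list. Of 14 genes tested for other bZIP factors, 3 were higher and 3 lower in IgE/DNP than in Ctrl (21.4% each, and 1 lower after scaling to the mean of the sums), with a median log2 fold change of -0.03 against -0.01 for all genes. These factors are not all established partners of FOS or JUN proteins. Atf3, a stress-induced JUN partner, led them at 1.65 (SE 0.04, limma adjusted p = 1.09e-07), from 17.9 FPKM in Ctrl to 58.3. Maff, a small MAF protein, rose from 2.96 to 8.50 FPKM, with a log2 fold change of 1.26 (SE 0.10, limma adjusted p = 0.000109). In PF against IgE/DNP, 1 was higher (3 after median-ratio scaling) and 8 were lower (57.1%), with a median of -0.28 against -0.04. Maff was lower there by a log2 fold change of -1.73 (SE 0.11, limma adjusted p = 4.70e-06) and Creb1, encoding the cyclic AMP response factor CREB, by -0.71 (SE 0.07, limma adjusted p = 3.93e-05), while Batf3, a partner of JUN proteins, was higher by 0.60 (SE 0.10, limma adjusted p = 0.00121). Against Ctrl, PF had 3 of the 14 higher and 9 lower (64.3%, median -0.20 against -0.05), the lowest being Ddit3, a stress factor that dimerizes with C/EBP proteins, at -0.80 (SE 0.05, limma adjusted p = 3.73e-06). Jdp2, below 1 FPKM in each PF sample, passed the filter only through the other group, and without it 7 of 13 and 8 of 13 were lower in the PF comparisons.

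Of 14 tested genes for factors known to act at the Fos promoter, 3 were higher and 3 lower in IgE/DNP than in Ctrl (21.4% each, median -0.02), and 1 was higher and 7 lower (50.0%) in PF than in IgE/DNP (median -0.16). In PF against Ctrl, 1 was higher and 7 lower (median -0.14), and the lower calls numbered 4 (28.6%) after median-ratio scaling, where 30.7% of all genes were lower. Srf, the serum response factor gene, was at 7.10 ± 0.712, 8.75 ± 0.410 and 9.14 ± 0.944 FPKM in Ctrl, IgE/DNP and PF (SD, n = 3 each) and was the 1 gene higher in PF than in Ctrl, at 0.32 (SE 0.09, limma adjusted p = 0.0153). Creb1 had 0.49 in IgE/DNP over Ctrl (SE 0.06, limma adjusted p = 0.000902). The coactivator gene Crebbp was lower in PF than in IgE/DNP by a log2 fold change of -0.55 (SE 0.08, limma adjusted p = 0.000521).

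The MAP kinase cascades that reach AP-1 had 4 of 27 genes higher (14.8%, near the share of all genes) and 6 lower (22.2%) in IgE/DNP than in Ctrl (median 0.02), 3 of 28 higher and 12 lower (42.9%) in PF than in IgE/DNP (median -0.08) and 3 of 27 higher and 9 lower (33.3%) in PF than in Ctrl (median -0.04, and 0.003 after median-ratio scaling). Map2k3, a kinase of the p38 branch, was at 22.2, 30.6 and 20.3 FPKM in the 3 groups, with log2 fold changes of 0.44 in IgE/DNP over Ctrl (SE 0.05, limma adjusted p = 0.000897) and -0.57 in PF over IgE/DNP (SE 0.06, adjusted p = 6.05e-05). Map3k1, a kinase upstream of JNK, was lower in IgE/DNP than in Ctrl (-0.38, SE 0.05, limma adjusted p = 0.00110) and in PF than in Ctrl (-0.79, SE 0.08, adjusted p = 4.84e-05). Mapk12, a p38 kinase, was the gene with the highest log2 fold change of this list in PF over IgE/DNP at 0.66 (SE 0.12, limma adjusted p = 0.00196), though from a level of 1.43 FPKM.

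Of 19 tested genes that set the turnover of FOS and JUN mRNA or protein, 4 were higher (21.1%) and 3 lower (15.8%) in IgE/DNP than in Ctrl (median 0.04). As deposited, 4 were higher and 4 lower in PF than in IgE/DNP (21.1% each, median -0.07), and 5 higher and 5 lower in PF than in Ctrl (26.3% each, median -0.05). After scaling to the mean of the sums these counts were 2 and 8 and then 4 and 7. The largest change was that of Zfp36l1, which binds AU-rich elements and promotes mRNA decay, at 35.9, 88.2 and 42.6 FPKM in Ctrl, IgE/DNP and PF. Its log2 fold changes were 1.27 in IgE/DNP over Ctrl (SE 0.04, limma adjusted p = 1.17e-06) and -1.03 in PF over IgE/DNP (SE 0.04, adjusted p = 6.15e-07). Fbxw7, a ubiquitin ligase subunit that targets c-Jun, was lower in PF than in IgE/DNP by a log2 fold change of -0.54 (SE 0.04, limma adjusted p = 1.93e-05). Hnrnpd, which encodes the AU-rich element binding protein AUF1, was higher at each step, by 0.31 in IgE/DNP over Ctrl (SE 0.05, limma adjusted p = 0.00286) and 0.27 in PF over IgE/DNP (SE 0.04, adjusted p = 0.000510).

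Among genes known as AP-1 targets, 8 of 17 tested were higher in IgE/DNP than in Ctrl (47.1%), 2 were lower and 7 did not pass, with a median of 0.34 against -0.01 for all genes. In PF against IgE/DNP, 4 were higher and 8 lower (47.1%, median -0.28 against -0.04), and against Ctrl 9 were higher and 4 lower (median 0.28 against -0.05). The cytokine gene Il4 was at 2.33, 12.3 and 3.49 FPKM in Ctrl, IgE/DNP and PF, with log2 fold changes of 2.00 (SE 0.07, limma adjusted p = 9.82e-07) and then -1.59 in PF over IgE/DNP (SE 0.13, adjusted p = 1.68e-05). Plau, the urokinase gene, had the lowest value of the list in PF over IgE/DNP, -2.13 (SE 0.08, limma adjusted p = 4.53e-07). Moving the other way were Dusp1, a MAP kinase phosphatase, at 1.15 (SE 0.06, limma adjusted p = 2.17e-06), and the inflammatory cytokine Tnf at 0.95 (SE 0.12, adjusted p = 0.000214).

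Of the other immediate early genes, several passed the filter only through the group in which they were high, which fixed their direction, and are left out of these counts. They were Egr2, Nr4a1 and Nr4a3 in IgE/DNP against Ctrl, Klf2 and Nr4a3 in PF against IgE/DNP, and Dusp5, Egr2, Klf2 and Nr4a1 in PF against Ctrl. Of the remaining 19 genes, 9 were higher and 2 lower in IgE/DNP than in Ctrl. In PF against IgE/DNP, 6 of 22 were higher and 13 lower, and in PF against Ctrl 10 of 19 were higher and 7 lower. These counts are as deposited. With the left-out genes kept in, PF against IgE/DNP had 7 higher and 14 lower as deposited. The counts were 8 and 14 after median-ratio scaling and 4 and 15 after scaling to the mean of the sums. Against Ctrl, PF had 14 higher and 7 lower as deposited and after median-ratio scaling. After scaling to the mean of the sums, 11 were higher and 8 lower. Egr3, a zinc finger factor of the EGR family, was at 2.50, 44.9 and 7.19 FPKM in the 3 groups and had -2.49 in PF over IgE/DNP (SE 0.06, limma adjusted p = 6.02e-08). Egr1, of the same family, had the highest log2 fold change of the list in IgE/DNP over Ctrl, 5.20 (SE 0.06, limma adjusted p = 1.87e-09). In PF over IgE/DNP, Egr1 had 0.41 (SE 0.05, limma adjusted p = 0.000179). Klf2, a Kruppel-like factor, was at 0.437, 0.657 and 6.59 FPKM, below the filter in both other groups, and is given without a test.

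The genes whose course was nearest to that of a subunit were taken by the Euclidean distance over the 6 antigen-treated samples of log2(FPKM + 1) less the Ctrl mean, among 10504 genes, as a description. Nearest to Fosb was Egr1, at a distance of 1.80, with 3.65, 169.3 and 225.9 FPKM in Ctrl, IgE/DNP and PF. The next for Fosb were farther, LOC100360679 (listed at 0 in 1 Ctrl sample) at 4.81 and Egr3 at 6.40. For Fos the nearest were Dnaaf2 (1.55), Klf2 (1.94) and RGD1309730 (1.99). Their log2 differences from Ctrl were 1.25, 0.20 and 0.89 in IgE/DNP, where Fos had 1.31. The PF values were 1.62, 2.40 and 1.43, where Fos had 2.49. Klf2 was thus close to Fos in PF and not in IgE/DNP. For Jun the nearest were Hgh1, Arf6 and Ppil2 (0.0713, 0.0913 and 0.103), and for Junb Tmem161a, Rsrc1 and Iqce (0.118, 0.124 and 0.132). The distance grows with the size of the changes, so it cannot be compared between subunits.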

How the data were processed

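RNA-seq of 9 RBL-2H3 samples (3 each of Ctrl, IgE/DNP and PF) was analysed. The values deposited by the authors are FPKM per gene, 1 file per sample. The headers name no unit, which was inferred from the values. The study's methods and the submitters' processing notes name HISAT2 2.0.4, Bowtie2 2.2.5 and RSEM 1.2.12 with the build rn6, and the authors used DESeq2 on counts, which are not used here. The labels say Illumina and the methods BGISEQ-500. Of 38490 genes listed, 20484 had no value in any sample.

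Each comparison kept genes that reached 1 FPKM in 3 or more of its 6 samples and tested them with limma 3.58.1 (R 4.3.3, trend) on log2(FPKM + 1), with Benjamini-Hochberg adjustment over all genes tested and a threshold of 0.05. Fold changes are on that scale, which understates changes of low genes. Sums, shares and ratios were compared by two-sided exact permutation tests, unadjusted, since 3 against 3 cannot pass 0.05. The limma fit was tested on simulated data. The 7 members and the gene lists were chosen with earlier results of these data known. All members are named and, from each list and comparison, genes among the 2 highest and 2 lowest log2 fold changes that passed. Whether replicate numbers pair the samples is not known, and the main tests treated the samples as unpaired. Correlations of deviations between same-numbered samples were -0.07 to 0.04 in IgE/DNP vs Ctrl and PF vs IgE/DNP. In PF vs Ctrl they were 0.09, 0.18 and 0.08, against -0.13 to 0.03 for different numbers. Results with a replicate block are given below. Promoter windows are from RefSeq (GRCr8), a different build, matched by gene ID.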

Additional observations from a re-analysis of the deposited data

How the results depend on the processing

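Member calls were recomputed with 0.1 as the pseudocount, without the filter, with 9 samples in the fit, a replicate block, 2 other scalings, a threshold of 0.01, without each replicate and, for PF, with the 1 sample entered as 4 h in both fields. Of 228 member fold changes so obtained, 226 kept their direction where called and their side of the threshold. The other 2 were Jun (-0.11, mean of the sums) and Junb (0.13, without PF replicate 3), both in PF vs IgE/DNP. Members called numbered 5 or 6 in IgE/DNP vs Ctrl, 4 or 5 in PF vs IgE/DNP and 6 in PF vs Ctrl, the extra call with no filter being Fosl1. With the replicate block 5, 4 and 6 members were called, so it changed no call. The paired differences in FOS share had means of 7.25, 1.05 and 8.30 points in the same order (exact sign-flip permutation p = 0.25, the smallest 3 pairs allow). The summed family FPKM differed on the log2 scale by 0.49 to 0.54, 0.27 to 0.42 and 0.80 to 0.92 under the alternatives run. Genes called over all genes in IgE/DNP vs Ctrl were 3031, against 1469 at a threshold of 0.01. Fosl1 is limited by its low level, and fragment counts are unknown.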
